A study of Mus musculus with 8 samples.

Results

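Dendritic-rule nuclei are 213 liver nuclei picked out of 80575 deposited barcodes by the genes of dendritic cells. A nucleus was taken when it had at least 300 detected genes and at least 2 unique molecular identifiers (UMIs, each a counted RNA molecule) summed over Flt3, Xcr1, Clec9a, Cd209a and Siglech. It also had to lack Clec4f, Timd4, F13a1 and Pax5, and to hold at most 1 UMI over Stab2, Reln, Pkhd1 and Cd3e. The library with exactly 20000 barcodes, RD tumour 1, was left out by the rule and held 2 nuclei that met the other criteria. The nuclei came from whole livers of male DIAMOND mice, a 129A1/SvIm and C57BL/6J cross, all given a Western diet (WD, high fat with fructose and glucose in the water). In the WD tumour group (3 mice) this diet lasted 48 weeks and the mice had hepatocellular carcinoma. The other mice were returned to chow after 36 weeks, and had tumours (RD tumour, 2 mice, of which RD tumour 2 is used here) or no detectable tumour (RD no tumour, 3 mice). All livers were taken at the end of the study, at 48 weeks of age by the labels. By the design text feeding began in mice aged 2 months, so that 48 weeks of diet would end at a later age. There was no group kept on chow throughout, and the labels do not say whether tumour or surrounding liver was sampled.

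Dendritic cells take up antigen and show it to T cells on MHC class II and class I molecules. Conventional dendritic cells depend on the growth factor receptor FLT3: type 1 cells, marked by Xcr1 and Clec9a, are specialised in presenting antigen of dead cells on MHC class I, and type 2 cells, marked in the mouse by Cd209a, mainly prime helper T cells. Plasmacytoid dendritic cells, marked by Siglech and driven by the transcription factor TCF4, are known for making type I interferon. All of these cells are rare in liver, where Kupffer cells and sinusoidal endothelial cells also take up antigen.

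Nuclei of the 7 libraries had total counts of 17948627 to 32537971 UMIs per library, and 59446 nuclei passed the minimum of 300 genes. The median kept nucleus had 1120 to 2656 UMIs, and the median dendritic-rule nucleus of a mouse had 1393 to 2134. WD tumour 1 and WD tumour 3 had a median mitochondrial share of 7.91% and 7.51%, against 1.30% to 3.28% in the other 5 libraries. RD no tumour 1 and WD tumour 2 stood apart by their F13a1 nuclei (200 and 38, against 2 to 13 in the others). Each pair of libraries shared 8 to 39 barcodes, and no barcode of a dendritic-rule nucleus occurred among the dendritic-rule nuclei of another library.

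The rule genes sorted the 213 nuclei into 136 with a conventional marker (Xcr1, Clec9a or Cd209a) and no Siglech, 42 plasmacytoid nuclei with Siglech and no conventional marker, 17 mixed nuclei with both, and 18 with Flt3 alone. These values chose the nuclei and are given as a description. The margin was thin: 125 nuclei had exactly 2 UMIs over the 5 rule genes, 88 had 3 or more, and 730 nuclei just outside had 1. Wdfy4, which was not in the rule and is needed for presenting dead-cell antigen, had a per-mouse level of 698 to 1595 CPM (UMIs of the gene per 1000000 UMIs of the class; median 1039) in nuclei with 3 or more rule UMIs, 0 to 1118 (median 347) in those with 2 and 23.8 to 335 (median 150) in those with 1. Of 893 nuclei with 2 or more rule UMIs, 316 were lost to Clec4f, Timd4, F13a1 or Pax5 and another 364 to Stab2, Reln, Pkhd1 or Cd3e. Of these 364, 344 held 2 or more UMIs of Stab2, whatever their UMIs of the other 3 genes.

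The conventional-marker nuclei were in the main Clec9a nuclei. Clec9a, a receptor for dying cells, was found in 127 of the 136 and was the one rule gene found in 93. Xcr1, the receptor of the type 1 cells for the chemokine XCL1, was found in 15, Cd209a in 6 and Flt3 in 33. Type 2 nuclei (Cd209a with neither Xcr1 nor Clec9a) numbered 0 to 2 per mouse, so type 1 and type 2 nuclei could not be compared.

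Clec9a went against its use as a dendritic marker in these libraries. In nuclei with at least 2 UMIs of Stab2, the scavenger receptor of sinusoidal endothelium, 21.4% to 35.1% per mouse had a Clec9a UMI (median 27.0%, 1021 of 3813 nuclei). In Reln nuclei, which are stellate by that marker, the share was 0.310% to 2.61% (32 of 2842), at a like depth (median 1258.5 to 2981 UMIs, against 1337 to 2585.5 in Stab2 nuclei). The Stab2 share was higher in 7 of 7 mice, by 26.1 ± 5.94 percentage points (SD, n = 7; two-sided exact sign-flip test, p = 0.015625, the smallest that 7 mice allow). Nuclei with at least 2 UMIs of Clec4f or Timd4, which mark Kupffer cells, and no UMI of the other types' markers lay between, at 6.43% to 17.4%. The other rule genes did not share this pattern, since Flt3 and Siglech were found in at most 0.412% of the Stab2 nuclei of a mouse and Xcr1 in at most 0.407%.

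**Figure D1:**
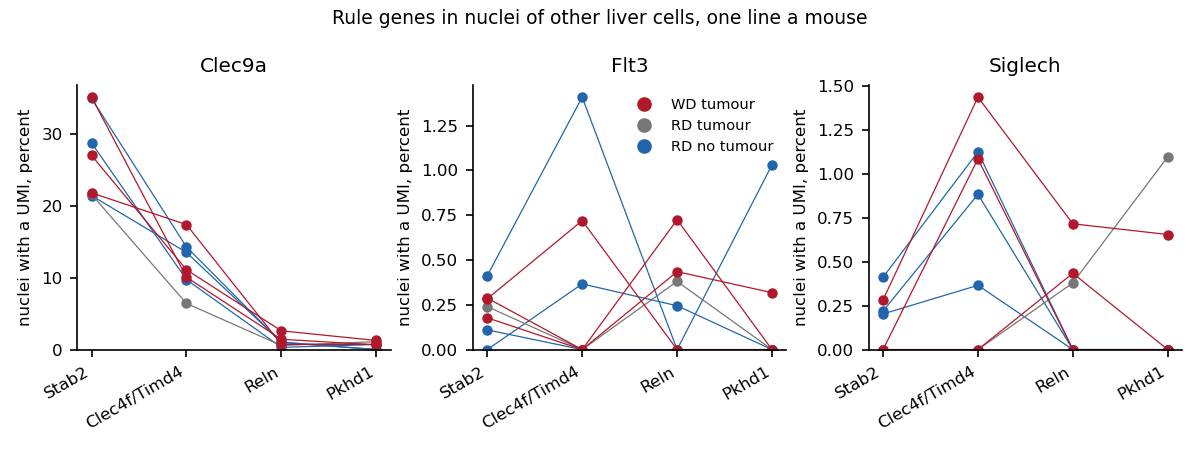
Share of nuclei with a UMI of Clec9a, Flt3 or Siglech (vertical axes in percent, with a different scale in each panel) in Stab2, Clec4f/Timd4, Reln and Pkhd1 nuclei, with 1 line per mouse coloured by group. Clec9a runs from 21.4% to 35.1% in Stab2 nuclei and stays under 2.61% in Reln nuclei, while Flt3 and Siglech stay at or under 0.412% in Stab2 nuclei.

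Clec9a lies on the forward strand of chromosome 6 (GRCm38, 129408862 to 129424763, GENCODE M21 annotation) between 2 other C-type lectin genes. Its start overlaps the end of Clec1b (129397297 to 129409335, same strand) by 474 bases, and 8 bases separate its end from the end of Clec1a (129424772 to 129452000), which is on the reverse strand. In Stab2 nuclei the Clec1b gene was found in 20.4% to 46.5% and Clec1a in 32.8% to 54.9% per mouse. Both had a UMI in the same kind of nucleus as Clec9a, and how many of the Clec9a UMIs came from RNA of either neighbour was not tested.

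Endothelial genes split the conventional-marker nuclei. Each nucleus was scored by its UMIs over 8 endothelial genes (Ptprb, Pecam1, Kdr, Flt1, Stab1, Clec4g, Vwf and Tek) and over 13 genes of antigen presentation and dendritic cells. An endothelial majority of at least 2 UMIs was found in 76 of the 136, a dendritic majority in 44, and neither in 16. In single mice 33.3% to 73.7% of the conventional-marker nuclei were on the endothelial side and 15.8% to 44.4% on the dendritic side. This split was made after the data were seen and is a description only.

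The rule genes fell apart along the same line. On the endothelial side 75 of the 76 nuclei held Clec9a as their one rule gene, none held Xcr1, 1 held Flt3 and 14 held Ptprc, the pan-leukocyte gene. On the dendritic side 6 of the 44 held Clec9a alone, 13 held Xcr1, 30 held Flt3 and 36 held Ptprc. Genes that the split did not use differed widely in their pooled level. The adhesion molecule Cadm1, a type 1 marker, stood at 193 CPM on the endothelial and 1762 on the dendritic side, and Unc93b1, the chaperone of endosomal Toll-like receptors, at 57.0 and 392.

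Vessel genes showed the reverse. Ldb2 stood at 894 and 8.01, the adhesion receptor Adgrf5 at 504 and 8.01, clotting factor gene F8 at 556 and 56.1, and Lyve1 and Gpr182, both sinusoidal genes, at 123 and 92.0 against no UMI in the 124864 of the dendritic side (up to 24.0 CPM allowed by 3 counts). Over the 12 type 1 genes not used in the split, the summed level was 692 on the endothelial and 3115 on the dendritic side, and 11 of the 12 were higher on the dendritic side. Zbtb46, a conventional dendritic transcription factor that endothelium is also known to express, differed little (158 and 232). Median depth was 1822 UMIs on the endothelial and 2233.5 on the dendritic side.

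**Figure D2:**
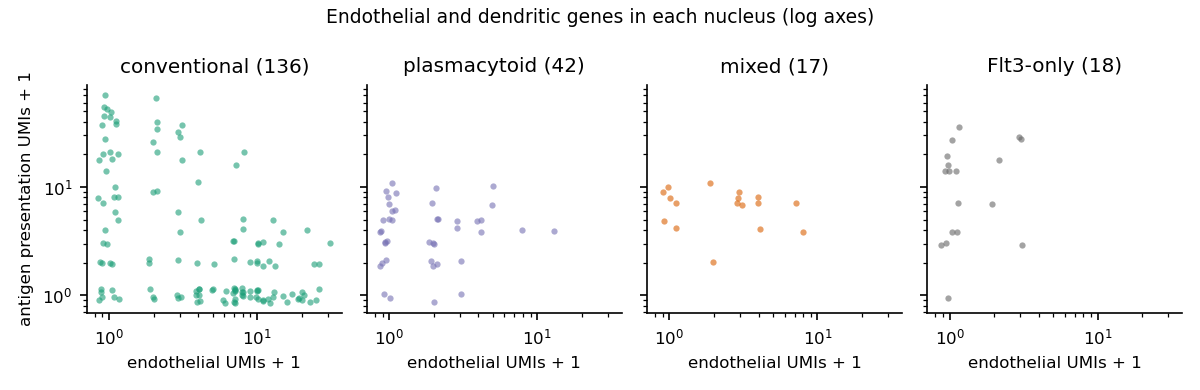
UMIs over 8 endothelial genes (horizontal) and over 13 antigen presentation and dendritic genes (vertical) in each of the 213 nuclei, both plus 1 on log axes with a small random shift, by subset. Of the 136 conventional-marker nuclei, 76 lie to the lower right and 44 to the upper left. An endothelial majority was found in 4 and a dendritic majority in 28 of the 42 plasmacytoid nuclei. Of the 18 Flt3-only nuclei 16 had a dendritic majority.

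Each class comparison below was therefore also made without nuclei that held 2 or more UMIs over the 8 endothelial genes, which removed 110 of the 213. In 2 mice, RD no tumour 3 and WD tumour 2, this left too few nuclei for the class comparisons (8 dendritic-rule nuclei each), so these fits rest on 5 mice. Levels are CPM of the summed UMIs of a class, in single mice or pooled, differences are on the log2 scale with their standard error, and calls are at an adjusted p under 0.05 (edgeR quasi-likelihood test, Benjamini-Hochberg over all genes tested). The 13 rule genes were left out of all calls.

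Against F13a1 nuclei, which carry a coagulation factor gene of monocytes and macrophages, dendritic-rule nuclei held more RNA of MHC class II, of Wdfy4 and Irf8, and of plasmacytoid regulators, and less of monocyte genes. The comparison used 124 dendritic-rule and 261 F13a1 nuclei of the 4 mice with at least 10 of each, with 330248 and 594049 UMIs in all. Of 1896 genes tested 236 (12.4%) were called, 141 higher (7.44%) and 95 lower (5.01%) in dendritic-rule nuclei. RD no tumour 1 gave 200 of the 261 F13a1 nuclei, and without it 107 genes were called.

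Of the 10 listed MHC class II genes 5 passed the low-count filter, and all 5 rose (H2-Aa, H2-Ab1, H2-Eb1, the invariant chain Cd74 and their transactivator Ciita, with a median of 1.98, against -0.01 over all genes tested). A gene can pass this filter through the class where it is high. This and the later counts and medians of list members are therefore a description only. H2-Ab1 stood at 312, 217, 294 and 263 in dendritic-rule nuclei of RD no tumour 1, RD tumour 2, WD tumour 2 and WD tumour 3, and at 38.6, 0, 33.5 and 126 in their F13a1 nuclei. The dendritic-rule value was the higher one in each mouse (log2 difference 2.82 ± 0.47 (SE), adjusted p = 1.72e-04, edgeR). Of the pan-dendritic list 4 of 6 tested genes rose, namely Bcl11a, Ciita, the peptidase gene Dpp4 and the kynurenine enzyme gene Kmo. Of the type 1 list Irf8, the lineage transcription factor, and Wdfy4 rose among 4 tested. Of the type 2 list the integrin gene Itgam, the inhibitory receptor gene Sirpa and the repressor gene Zeb2 fell and Adam23 rose, of 4 tested (median -1.72).

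Plasmacytoid genes rose too: Tcf4 (log2 difference 3.25 ± 0.35 (SE), adjusted p = 5.71e-07, edgeR), Runx2 (2.81) and the glutamate receptor gene Grm8, which had 175 UMIs against 3, or 105-fold (95% counting interval 35.3 to 514). Other leading genes were Cacna1e, a calcium channel subunit (145 UMIs against 1, 261-fold (95% counting interval 46.1 to 10372)), and Olfr164, annotated as an olfactory receptor gene (78 UMIs against 0, at least 46.8-fold with 3 counts as the floor). Srgap3 and Cyyr1 each had 3 UMIs in F13a1 nuclei and 71 and 70 in dendritic-rule nuclei, 42.6-fold (95% counting interval 14.0 to 211) and 42.0-fold (95% counting interval 13.8 to 208). Clec1a, Clec9a's neighbour, had 133 against 3, 79.7-fold (95% counting interval 26.7 to 392). Prkca (3.89), St6galnac3 (3.90) and Adgrl4 (3.54) completed the leading 10 with Bcl11a (3.62). Among the conventional-marker nuclei St6galnac3 stood at 1038 CPM on the endothelial and 40.0 on the dendritic side, Adgrl4 at 499 and 8.01, and Cyyr1 at 434 and 24.0, while Clec1a stood at 342 and 841.

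Monocyte genes fell, namely Vcan (2 UMIs against 442, lower by 123-fold (95% counting interval 33.8 to 1018)), Chil3 (-4.06), the chemokine receptor gene Ccr2 (-1.89) and Fn1 (-1.23), 4 of 5 tested. Lyz2, a macrophage lysozyme gene (log2 difference -4.25 ± 0.38 (SE), adjusted p = 4.73e-08, edgeR), Csf1r, Adgre1 and Pla2g7 (-4.06) also fell, and Gm49144 had 0 UMIs against 117, at least 21.7-fold lower by the same floor. The endothelial genes Ptprb (3.03), Flt1 and Pecam1 rose, 3 of 5 tested, beside a summed endothelial level of 1929 in dendritic-rule and 467 in F13a1 nuclei. Once nuclei with endothelial genes were taken out, only RD no tumour 1 kept 10 nuclei of each class, and no fit was possible. Of 12 hepatocyte genes 0 were called by edgeR and 1, Cps1, had an unadjusted p under 0.05.

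Against Kupffer-rule nuclei (Clec4f or Timd4, the resident macrophages of liver sinusoids), dendritic-rule nuclei were higher in MHC class II, Bcl11a, Tcf4, Runx2, Irf8 and Wdfy4 and lower in every Kupffer cell and macrophage gene tested. All 7 mice entered, with 213 nuclei (553694 UMIs) against 1900 (5565807 UMIs). Of 5160 genes tested 960 (18.6%) were called, 355 higher (6.88%) and 605 lower (11.7%). Without the nuclei with endothelial genes 424 of 3643 genes were called (11.6%), and with all nuclei of the same 5 mice 861 of 5523.

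All 5 MHC class II genes tested rose again (median 2.23, against -0.03 over all genes tested, and 2.95 without the nuclei with endothelial genes). Cd74 ranged from 218 to 579 (median 294) over the dendritic-rule nuclei of the 7 mice and from 20.8 to 345 (median 76.7) over their Kupffer-rule nuclei. Bcl11a, a transcription factor of plasmacytoid and B cells, ranged from 200.1 to 1018 (median 314) against 0 to 16.4 (median 4.35). For Bcl11a the 2 ranges did not overlap, and the difference held in 7 of 7 mice (log2 difference 5.92 ± 0.29 (SE), adjusted p = 4.00e-17, edgeR).

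The leading genes were Olfr164 (100 UMIs against 1, 1005-fold (95% counting interval 176 to 40096)), Cacna1e (8.21), Bcl11a, Pdzd4 (5.56), the glutamate receptor subunit gene Gria3 (5.35), Aff3 (4.85), the transcription factor Mef2c (4.59), the corepressor Cbfa2t3 (4.56), Tmem163 (4.56) and the inhibitory receptor Btla (4.43). Of these 10, 9 could be tested without the nuclei with endothelial genes and all 9 were called again. Wdfy4 (log2 difference 2.34 ± 0.17 (SE), adjusted p = 3.75e-13) and Irf8 (log2 difference 2.21 ± 0.17 (SE), adjusted p = 3.27e-12, both edgeR) rose, as did Plpp1, 3 of 5 type 1 genes tested. Plpp1 stood at 351 CPM on the endothelial and 192 on the dendritic side of the conventional-marker nuclei. Without the nuclei with endothelial genes it was too low to be tested, while Wdfy4 and Irf8 were called again. Of the plasmacytoid list 6 of 12 rose (Tcf4, Runx2, Grm8, Lifr, Blnk and the gut-homing receptor Ccr9) and Pltp fell.

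All 8 Kupffer cell genes tested fell (median -2.76), among them the complement receptor Vsig4 (-3.69), Cd5l (-3.66), the iron exporter Slc40a1 (-2.92) and Marco (-2.76). Such genes can pass the low-count filter through the Kupffer-rule nuclei, which were chosen by Clec4f and Timd4, so the count is a description only. With nuclei holding endothelial genes left out 4 of 6 were called, Hmox1 (adjusted p = 0.0675) and Id3 (adjusted p = 0.139, both edgeR) were not, and Marco and Cd163 were too low to be tested. All 8 macrophage genes tested fell in both settings, such as Csf1r and the complement genes C1qa, C1qb and C1qc, a count with the same limit. The sharpest falls outside the lists were of Kcnj16 (1 UMI against 1688, 168-fold (95% counting interval 30.1 to 6637)), Pcolce2 (2 against 680, 33.8-fold (95% counting interval 9.33 to 279.9)), Tmem26 (3 against 621, 20.6-fold (95% counting interval 7.01 to 100.1)), Ctla2b (-4.02) and Epb41l3 (-3.95). Of the lipid-handling genes the efflocytosis receptor Mertk, the cholesterol exporters Abca1 and Abcg1, Nr1h3 and Plin2 fell and Cd36 and Cd9 rose, of 11 tested. Neither rise was called with nuclei holding endothelial genes left out (Cd36 1.03, adjusted p = 0.0734, edgeR; Cd9 too low to be tested), and nor was the fall of Abcg1 (adjusted p = 0.135, edgeR).

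The type 2 list moved mostly down, with Sirpa, the repressor Zeb2 and Clec4a1 lower and Adam23 higher of 4 tested. Adam23 stood at 1021 on the endothelial and 120 on the dendritic side of the conventional-marker nuclei. Of the mature dendritic list Cd80, Cd86, Cd274 and Birc3, genes of costimulation and its control, fell among 6 tested. When nuclei with endothelial genes were left out, Cd86 (-0.62) and Birc3 (-0.38) were not called, and Cd80 and Cd274 were too low to be tested. The endothelial genes Ptprb, Flt1 and Clec4g rose and Mrc1 fell.

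Against Pax5 nuclei, which are B cells by that marker, MHC class II did not separate the classes: 0 of 5 genes tested were called, with a median of -0.04 against 0.01 over all genes. Dendritic-rule nuclei were higher in Runx2, Tcf4, Irf8, Cadm1 and Wdfy4 and lower in B cell genes. The comparison set 213 nuclei against 149 (351663 UMIs) in 7 mice and called 159 of 1216 genes (13.1%), 78 higher (6.41%) and 81 lower (6.66%). Without the nuclei with endothelial genes 96 of 468 were called (20.5%, against 198 of 1262 with all nuclei of the same 5 mice), and 2 of the 3 MHC class II genes tested were then higher.

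Runx2 ranged from 447 to 1809 (median 833) over the dendritic-rule nuclei of the 7 mice and from 0 to 497 (median 31.3) over the Pax5 nuclei. It was higher in 7 of 7 mice (log2 difference 3.50 ± 0.36 (SE), adjusted p = 1.05e-06, edgeR). Tcf4 (log2 difference 2.23 ± 0.31 (SE), adjusted p = 3.47e-05), Irf8 (1.90), Cadm1 (1.51) and Wdfy4 (0.66; adjusted p = 0.0921 with all nuclei of the 5 mice, edgeR) also rose. Of the 10 leading genes 8 fell below the low-count filter without the nuclei with endothelial genes: Clec1a (4.99), Ldb2 (4.61), Acer2 (143 UMIs against 3, 30.3-fold (95% counting interval 10.2 to 149)), Prkg1 (3.89), Ptprb (3.64), Meis2 (3.53), Adam23 (3.48) and St6galnac3 (3.39). The other 2, Runx2 and Phactr2, were tested and called again at 5.06 and 4.83. Of the 8, Clec1a stood higher on the dendritic side of the conventional-marker nuclei, with a UMI in 30 of 44 nuclei against 45 of 76 on the endothelial side.

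B cell genes fell, with Ighd at 1 UMI against 110 (173-fold (95% counting interval 30.4 to 6902)), the lineage factor Ebf1 at -6.20, the adaptor Bank1 at -4.75, Ikzf3 at -4.62, Gm31243 at -4.59 and Bach2 at -2.06. Blnk, on the plasmacytoid list and a B cell adaptor, fell as well (log2 difference -1.69 ± 0.28 (SE), adjusted p = 2.55e-04, edgeR).

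The 42 plasmacytoid nuclei were higher than the 136 conventional-marker nuclei of the same mice in Tcf4, Runx2 and other transcription factors, and lower in Wdfy4 and Cadm1. Each mouse gave 3 to 10 plasmacytoid and 9 to 28 conventional-marker nuclei. Of 292 genes that passed the low-count filter 42 (14.4%) were called, 29 higher (9.93%) and 13 lower (4.45%) in plasmacytoid nuclei. The summed plasmacytoid list (21 genes) stood at 10471 CPM against 1562, with mice at 7034 to 18880.4 against 1144 to 2944, so that the mice did not overlap.

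Tcf4, the E-protein that sets plasmacytoid identity, ranged from 2476 to 5809 (median 2823) in plasmacytoid and 418 to 1509 (median 548) in conventional-marker nuclei (log2 difference 2.25 ± 0.22 (SE), adjusted p = 5.70e-07, edgeR). Runx2, needed for plasmacytoid cells to leave the marrow, ranged from 1835 to 4423 (median 2688) and 47.8 to 341 (median 109) (log2 difference 3.97 ± 0.33 (SE), adjusted p = 7.42e-08, edgeR). For both genes the lowest plasmacytoid value lay above the highest conventional-marker value. Of the 19 listed dendritic transcription factors 6 passed the low-count filter, and all 6 rose (Tcf4, Runx2, Bcl11a, Ikzf1, Irf8 and Zeb2; median 2.13, against -0.14 over all genes tested). A gene can pass this filter through the class where it is high, so the count is a description only. With nuclei holding endothelial genes left out 4 of 5 rose, Irf8 did not pass (0.49, adjusted p = 0.722, edgeR), and Ikzf1 was too low to be tested.

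Grm8 (log2 difference 5.18 ± 0.54 (SE), adjusted p = 8.89e-07, edgeR) led the genes that rose, before Olfr164 (4.34), Mctp2 (4.12), Runx2, Cacna1e (3.60), Prkca (3.43), Rnf220 (3.39), Ripor2 (3.03), Bcl11a (2.63) and Aff3 (2.62). Irf8, on the type 1 list, rose in the fit of all nuclei (1.45) but, as above, not without those holding endothelial genes. Its level ranged from 428 to 1413 (median 999) in plasmacytoid and 116 to 478 (median 260.5) in conventional-marker nuclei. IRF8 is made by both lineages.

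Wdfy4 ranged from 478 to 1343 (median 902) in conventional-marker and 61.2 to 285 (median 132) in plasmacytoid nuclei (log2 difference -2.82 ± 0.43 (SE), adjusted p = 6.47e-05, edgeR). The highest plasmacytoid value lay below the lowest conventional-marker value. Cadm1 (-1.51), the insulin receptor gene Insr (-2.11), Rbms1 (-1.70), Lrmda (-1.66) and the kinase gene Jak1 (-1.64) fell too. Cadm1 was called again with nuclei holding endothelial genes left out, but not with all nuclei of the 5 mice (-1.35, adjusted p = 0.0691, edgeR). The other 4 were then too low to be tested, and each stood higher on the endothelial side of the conventional-marker nuclei (Insr 846 CPM against 184 on the dendritic side, Rbms1 709.8 against 368, Lrmda 1336 against 569 and Jak1 1025 against 160). Naaa, Itgae, Tlr3 and Tlr11 had no UMI among the 100184 of the plasmacytoid nuclei, which allows up to 29.9 CPM (3 counts), and stood at 142, 72.2, 61.5 and 50.8 in conventional-marker nuclei. These 4 genes of the type 1 list were too low to be tested. Ptprb fell (-2.96), beside a summed endothelial level of 579 in plasmacytoid and 2576 in conventional-marker nuclei.

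Genes of nucleic acid sensing and interferon gave few UMIs. The 18 Toll-like receptor and adaptor genes summed to 639 CPM in plasmacytoid and 524 in conventional-marker nuclei, and 20 interferon-stimulated genes to 759 and 634. Tlr7, a receptor for RNA, stood at 99.8 and 18.7. Tlr9, the receptor for unmethylated DNA for which plasmacytoid cells are known, had no UMI in the 553694 of all dendritic-rule nuclei, which allows up to 5.42 CPM. None of these genes passed the low-count filter, so they carry no test.

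Without the nuclei with endothelial genes 13 of 119 genes were called (10.9%, against 66 of 514 with all nuclei of the same 5 mice), and all 5 of the 10 leading genes that could still be tested were among them. Without RD no tumour 1 the count was 26. T cell genes summed to 269.5 CPM in plasmacytoid (27 UMIs) and 16.0 in conventional-marker nuclei (6 UMIs). The part of these RNAs in the differences was not tested.

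**Figure D3:**
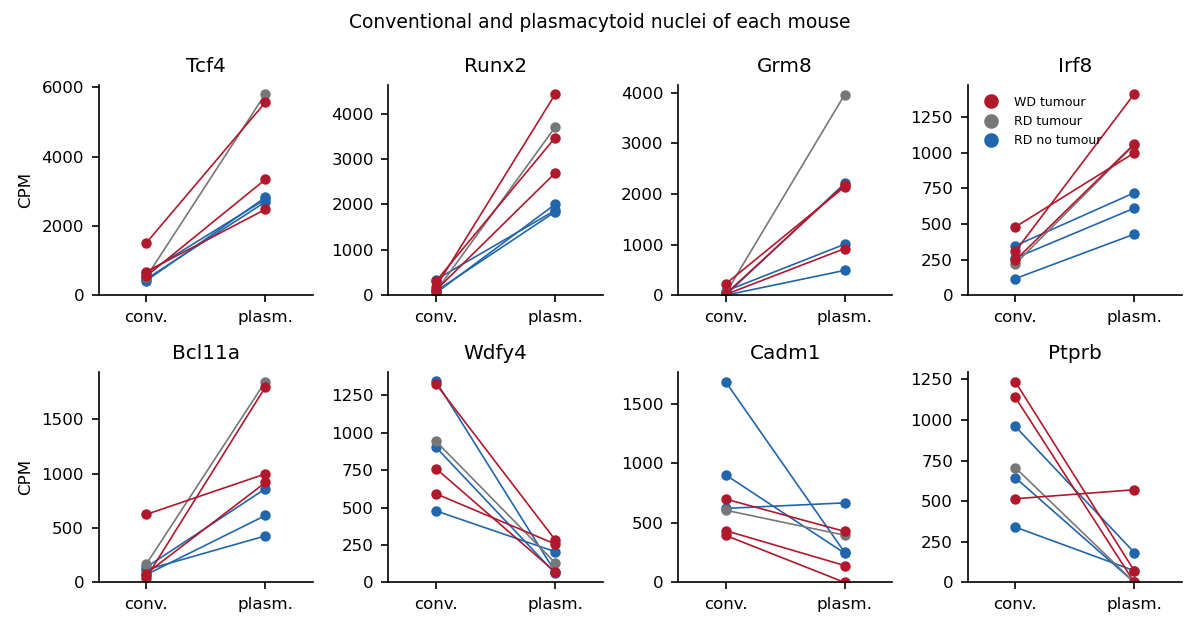
Level in CPM of 8 genes in conventional-marker (conv.) and plasmacytoid (plasm.) nuclei, with 1 line per mouse coloured by group and a different vertical scale in each panel. Tcf4, Runx2, Grm8, Irf8 and Bcl11a rise in all 7 mice and Wdfy4 falls in all 7, whereas Cadm1 and Ptprb each run the other way in 1 mouse.

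Because Tcf4 and Runx2 were high in the nuclei chosen by Siglech, the 250 bases before the Siglech start are shown (RefSeq, GRCm38.p6). They are given with matches to the forms of the binding motifs that were searched for. Beside them are those of the type 1 gene Xcr1, which have no match to these forms. Capitals mark the matches. Siglech is read 5′ to 3′ on the forward strand from chr7:55767934-55768183 and Xcr1 on the reverse strand from chr9:123862030-123862279.
Siglech: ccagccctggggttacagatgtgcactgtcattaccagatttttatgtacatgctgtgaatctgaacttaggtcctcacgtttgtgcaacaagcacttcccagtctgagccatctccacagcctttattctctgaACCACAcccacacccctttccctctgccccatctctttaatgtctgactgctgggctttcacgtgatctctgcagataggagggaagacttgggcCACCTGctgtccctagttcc
Xcr1: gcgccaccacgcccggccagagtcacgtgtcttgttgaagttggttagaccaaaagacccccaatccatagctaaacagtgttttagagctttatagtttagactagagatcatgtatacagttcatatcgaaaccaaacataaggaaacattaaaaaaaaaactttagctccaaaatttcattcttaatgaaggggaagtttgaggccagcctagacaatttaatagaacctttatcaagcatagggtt

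The E-box searched for TCF4 was CACCTG or, on the other strand, CAGGTG, and the RUNX motif was ACCACA or TGTGGT. Other forms of the E-box were not searched for. Siglech held 1 E-box of this form beginning 20 bases and 1 RUNX motif beginning 115 bases before its start, and they did not overlap. Windows of this length held the E-box before 17.2% and the RUNX motif before 14.0% of 32851 RefSeq starts. Neither was found before Flt3, Xcr1, Clec9a or Cd209a, and the ETS-IRF composite element, which IRF8 binds with PU.1 (2.30% of starts), was found before none of the 5 rule genes.

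The 17 mixed nuclei resembled the plasmacytoid ones in level. Their plasmacytoid list summed to 13322 CPM, Tcf4 stood at 4359 and Irf8 at 1413, against 3194 and 789 in plasmacytoid nuclei. In 14 of the 17 the conventional marker was a single UMI. None was called a doublet, against 14 of the conventional-marker and 4 of the plasmacytoid nuclei.

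Among whole subsets, the 18 nuclei with Flt3 alone were the highest in antigen presentation. The conventional-marker subset pools an endothelial and a dendritic side, where Cd74 stood at 39.4 and 1025 CPM and H2-Ab1 at 17.5 and 969. The split itself used these genes, and the ranking does not extend to the dendritic side alone. The 10 MHC class II genes of the Flt3-only nuclei summed to 4352 CPM, against 1533 in conventional-marker, 559 in plasmacytoid and 1715 in Pax5 nuclei. Their mature dendritic list, genes that dendritic cells switch on when they leave for lymph nodes, summed to 2228 against 449 in conventional-marker nuclei, with Relb, an NF-kappaB subunit, at 311 against 18.7 and the actin-bundling gene Fscn1 at 104 against 5.35. Their endothelial list was the lowest of these classes (311), and Ptprb, Kdr, Flt1, Clec4g, Vwf and Tek were at 0, which allows up to 77.7 CPM each (3 counts of 38603 UMIs). With 0 to 6 such nuclei per mouse these are pooled values with no test.

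**Figure D4:**
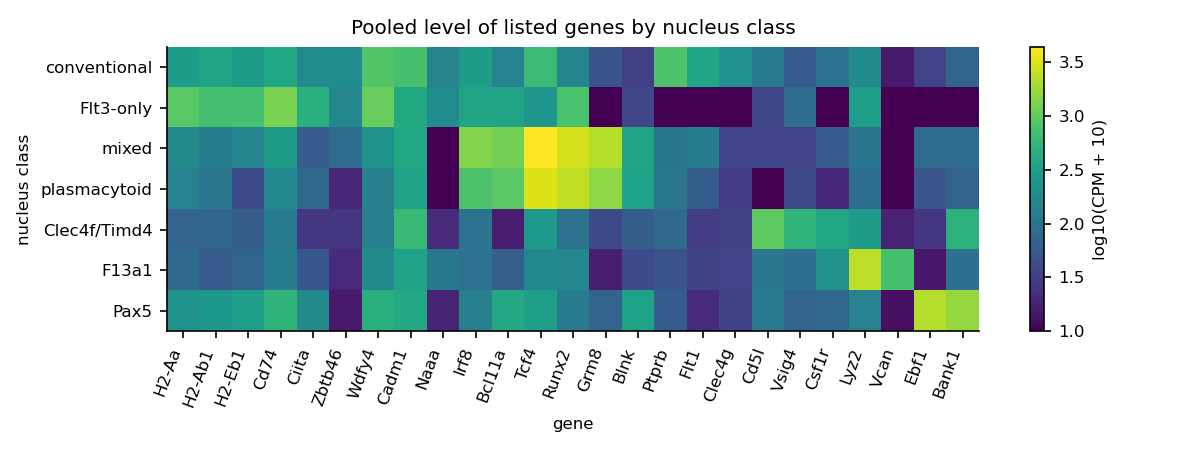
Pooled level of 25 listed genes (horizontal) in 7 classes of nuclei (vertical), coloured by log10 of CPM plus 10. MHC class II is highest in the Flt3-only row, Tcf4, Runx2 and Grm8 in the mixed and plasmacytoid rows, and Ptprb in the conventional row, where it stood at 810.5 CPM.

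The 12 hepatocyte genes summed to 26441 to 31578 CPM in all classes. Free RNA of broken cells can enter any droplet, and its part in the other lists was not tested. Kupffer cell genes summed to 586 in conventional-marker and 209.6 in plasmacytoid nuclei, against 3374 in Kupffer-rule nuclei.

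Continued Western diet with tumours was compared with reversed diet without tumours. The dendritic-rule nuclei numbered 29, 16 and 47 in WD tumour 1, 2 and 3, 30, 33 and 27 in RD no tumour 1, 2 and 3, and 31 in RD tumour 2. They made up 0.449% (0.301 to 0.644), 0.226% (0.129 to 0.367) and 0.530% (0.390 to 0.704) of the kept nuclei in WD tumour 1, 2 and 3 (exact Clopper-Pearson 95% intervals, which cover counting error only). They made up 0.292% (0.197 to 0.417), 0.546% (0.376 to 0.765) and 0.261% (0.172 to 0.379) in RD no tumour 1, 2 and 3, and 0.299% (0.203 to 0.424) in RD tumour 2. The groups overlapped, with means of 0.402% ± 0.157 and 0.366% ± 0.156 (SD, n = 3 each) and a log2 difference of 0.12 (two-sided exact permutation test, p = 1). The smallest p that 3 against 3 mice allow is 0.1. The sign turned in some settings, to -0.31 at a minimum of 3 rule UMIs and -0.03 with at most 5% mitochondrial UMIs. It lay between -0.12 and -0.00022 without RD no tumour 3, WD tumour 1 or WD tumour 3. Without the nuclei with endothelial genes the difference was 0.67 (exact p = 0.3).

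Plasmacytoid nuclei were 17.0% ± 1.94 of the dendritic-rule nuclei of the mice with WD tumours and 23.6% ± 9.17 of those without tumours after reversal (SD, n = 3 each), and 19.4% in RD tumour 2. The difference of -6.61 percentage points did not exceed the spread (two-sided exact permutation test, p = 0.3). Counting the mixed nuclei as plasmacytoid turned it to 4.48, and thinning each nucleus to 1000 UMIs turned it to 4.99.

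**Figure D5:**
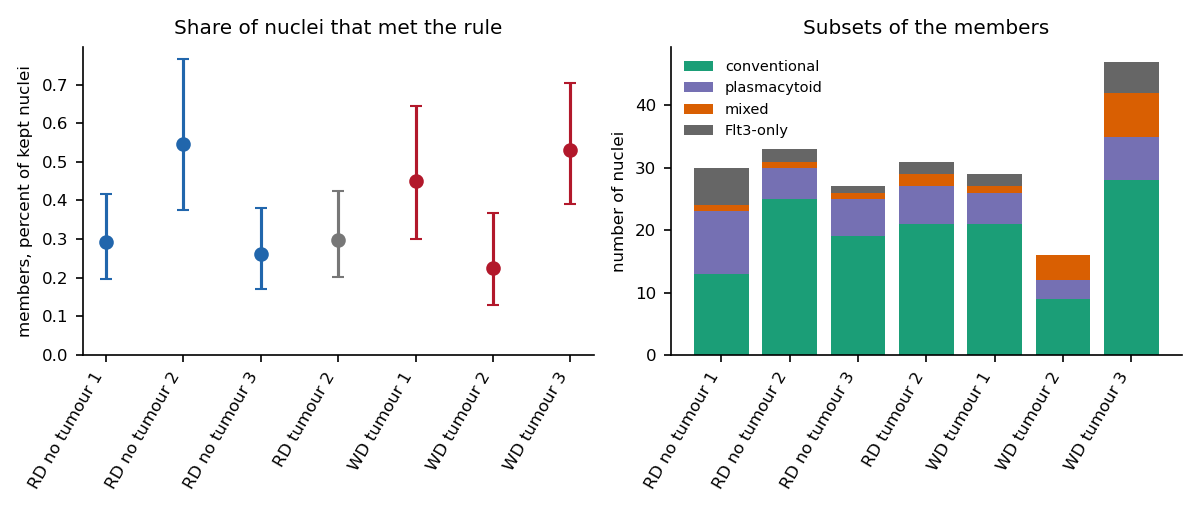
Left, dendritic-rule nuclei as a percent of kept nuclei in each mouse with exact 95% counting intervals; right, number of nuclei of each subset. The WD tumour mice (0.226% to 0.530%) and the RD no tumour mice (0.261% to 0.546%) cover much the same range.

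No gene passed the threshold between WD tumour and RD no tumour mice in dendritic-rule nuclei (0 of 3345 tested, 0%, by edgeR, lowest adjusted p = 0.486). At an unadjusted p under 0.05 there were 138 genes (4.13%), and DESeq2 called 0 with 63 at that level. Leaving out RD no tumour 1 gave 3 calls, RD no tumour 2 gave 1, WD tumour 2 gave 7, and both RD no tumour 1 and WD tumour 2 gave 10. The 16 to 47 nuclei per mouse limit what could be seen. A high median mitochondrial share was found only in the WD tumour group, in WD tumour 1 and 3 (7.91% and 7.51%). It was not found in WD tumour 2 (2.77%).

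Among the 10 genes with the lowest p were several that hepatocytes make. Levels over all kept nuclei are also given for Saa2, Nnmt, Cyp7b1, Serpina1e, Mup7 and Cyp2b9. Saa2, an acute-phase gene, stood at 17.0, 429.6 and 25.5 in WD tumour 1, 2 and 3 and 8863, 128 and 1037 in RD no tumour 1, 2 and 3. RD no tumour 1 was far above the rest, and over all kept nuclei its value was 10705. Nnmt stood at 34.0, 22.6 and 59.4 in WD tumour 1, 2 and 3 and 100.2, 419 and 273 in RD no tumour 1, 2 and 3. Its groups did not overlap (38.7 ± 18.9 against 264 ± 159.8 (SD, n = 3 each)), and neither did they over all kept nuclei (90.9 ± 13.7 against 322 ± 108 (SD, n = 3 each)).

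Cyp7b1, a bile acid synthesis enzyme gene, had 113 ± 42.8 against 447 ± 105 (SD, n = 3 each) in dendritic-rule nuclei and 476 ± 127 against 807 ± 333 (SD, n = 3 each) over all kept nuclei. Serpina1e had 163 ± 232 against 1139 ± 552 (SD, n = 3 each) and Mup7 2.83 ± 4.90 against 182 ± 162 (SD, n = 3 each). Cyp2b9, the lipolysis inhibitor gene G0s2, Csmd1, AA986860 and C330002G04Rik completed the 10 lowest, with log2 differences of 4.91, -1.93, 3.56, -1.82 and -3.16, none past the threshold. The part of free RNA in these values was not tested.

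Among listed genes the 3 and 3 mice did not overlap for Irf8, Spi1, Bcl6, S100a8 and Mecom, 5 of 99 tested (5.05%), in a comparison in which 286 of 3345 genes (8.55%) did not. Irf8 stood at 527, 859 and 535 in WD tumour 1, 2 and 3 and 389.7, 447 and 200.1 in RD no tumour 1, 2 and 3, and at 344 in RD tumour 2. Each WD tumour value lay above each RD no tumour value, and the difference missed the threshold (log2 difference 0.84 ± 0.44 (SE), adjusted p = 0.994, edgeR). It was 0.35 ± 0.61 (SE) with nuclei holding endothelial genes left out. Spi1, the gene of PU.1, had 39.6 ± 35.4 against 167 ± 66.0 (SD, n = 3 each), and the transcriptional repressor gene Bcl6 had a log2 difference of -1.57. S100a8, a neutrophil gene, and Mecom had log2 differences of -3.07 and -1.63, also short of the threshold.

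Antigen presentation and lineage genes gave no call between the groups. Over the 5 MHC class II genes tested the median log2 difference was -0.53, over 14 plasmacytoid genes 0.41, over 12 dendritic transcription factors -0.06 and over 6 type 1 genes 0.20, against 0.01 over all genes tested. Wdfy4 had 707 ± 210.0 against 651 ± 197 (SD, n = 3 each) and Cd74 316 ± 58.3 against 424 ± 186 (SD, n = 3 each), and H2-Aa differed by -0.71 on the log2 scale. Without the nuclei with endothelial genes 1 of 1457 genes was called (0.0686%), Tox, a transcription factor of T cells and other lymphocytes (adjusted p = 0.00587, edgeR). That call rested on few nuclei: WD tumour 1 had 43 Tox UMIs in 2 of its 20 nuclei, 42 of them in a single nucleus, WD tumour 3 had 14 in 6 of 23, and WD tumour 2 and the RD no tumour mice had none. Over all dendritic-rule nuclei Tox stood at 1071, 0 and 272 in WD tumour 1, 2 and 3 and 22.3, 657 and 218 in RD no tumour 1, 2 and 3, and the groups overlapped.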

How the data were processed

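Single-nucleus RNA was measured with the 10x Chromium 3′ v3.1 chemistry in 8 livers, of which 7 were used. The authors deposited one matrix of raw UMI counts per library (32285 genes), made with Cell Ranger 7.0.0 on mm10 per the submitters' processing notes; other settings, and whether intronic reads were counted, are not given in the sources used here. Genes that overlap or are near copies may share reads.

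Nuclei were classed by the rule genes in single nuclei. Comparator nuclei held at least 2 UMIs of F13a1, of Clec4f or Timd4, or of Pax5, with the other limits of the rule. Counts were summed per mouse and class, and tested with edgeR 4.0.16 in R 4.3.3 (quasi-likelihood, TMM, low-count filter at a minimum count of 10, mouse as block between classes). A mouse needed 10 nuclei of each class. For plasmacytoid against conventional-marker nuclei this minimum left 1 mouse, so 3 nuclei were used, a choice made after seeing the data. Type 1 against type 2 could not be fitted. DESeq2 1.42.0 was an alternative. Shares were compared by exact permutation with scipy 1.17.1 in Python 3.11.15. The tests were checked on simulated data.

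Doublets were scored per library with Scrublet in scanpy 1.11.5, and the top scores (0.8% per 1000 nuclei) were called, 18 of the 213. They were kept, and left out in an alternative. Thinning drew each nucleus down to 1000 UMIs and dropped shallower ones.

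The members and gene lists were chosen with earlier results of these data known. Named are, per class comparison, the 10 highest and 5 lowest log2 differences among called genes with the same direction in every mouse and a mean of at least 50 CPM (UMIs per 1000000) in the higher class, list members that were called, and between groups the 10 lowest p-values and list members whose mice do not overlap; some listed genes are not reported here. The split of conventional-marker nuclei by endothelial genes, and the values given for other genes by that split, were chosen after seeing the data. Replicates are separate mice per the labels.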

Additional observations from a re-analysis of the deposited data

How the results depend on the processing

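The share of dendritic-rule nuclei (log2 difference 0.12) turned to -0.31 with 3 rule UMIs and -0.0264 with at most 5% mitochondrial UMIs. Leaving out 1 mouse gave -0.12 to 0.49, below 0 without RD no tumour 3 (-0.08), WD tumour 1 (-0.00022) or WD tumour 3 (-0.12). The plasmacytoid share (-6.61 points) turned to 4.99 after thinning and, in a setting added after seeing the data, to 4.48 with mixed nuclei counted as plasmacytoid, and leaving out 1 mouse gave -10.8 to -1.73. No exact test of either share could pass at 0.05 in any setting. With 3 against 3 mice the smallest exact p is 0.1, and fewer mice allow none lower.

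Against F13a1 nuclei 236 genes were called, 148 by DESeq2, 150 with no low-count filter, 146 without doublet calls, and 107 (without RD no tumour 1) to 269 without 1 mouse. Against Kupffer-rule nuclei 960 were called, 1787 with no filter, 424 without the nuclei with endothelial genes and 800 to 922 without 1 mouse. Against Pax5 nuclei 159 were called, 529 with no filter (72.4% of them higher, against 49.1%), 92 with at most 5% mitochondrial UMIs, 96 without the nuclei with endothelial genes and 117 to 194 without 1 mouse. Between plasmacytoid and conventional-marker nuclei 42 were called, 389 with no filter (14.1% of them higher, against 69.0%), 11 with 3 rule UMIs, 13 without the nuclei with endothelial genes, 66 without RD no tumour 3 and WD tumour 2 together (a setting added after seeing the data; 861 against Kupffer-rule and 198 against Pax5 nuclei) and 26 (without RD no tumour 1) to 49 without 1 mouse. Between groups 0 were called, 14 with no filter, 1 without the nuclei with endothelial genes, 10 without RD no tumour 1 and WD tumour 2 together, and 0 to 7 without 1 mouse (3 without RD no tumour 1, 1 without RD no tumour 2 and 7 without WD tumour 2). The causes were not tested.

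The labels number the mice within each group, and these numbers are not said to pair them. With the replicate number as a block the share differed by 0.12 (exact sign-flip p = 1), the plasmacytoid share by -6.61 points (exact p = 0.5), and 0 genes were called between groups (33 at an unadjusted p under 0.05). Few nuclei, with 16 to 47 per mouse, limit all of these counts.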

Other observations

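Sensing, homing and growth genes also separated dendritic-rule from Kupffer-rule nuclei by the edgeR test, in a comparison that called 18.6% of 5160 genes. The Toll-like receptor genes Tlr4, the lipopolysaccharide receptor, and Tlr8 fell, by 1.54 and 2.08 on the log2 scale, of 6 tested. The chemokine receptor gene Ccr9 rose by 2.43, in 7 of 7 mice. The interferon-stimulated genes Oas2 (-2.88) and Ifi204 (-1.55) fell. Once nuclei with endothelial genes were left out, neither of the 2 Toll-like receptor or adaptor genes tested was called. Ccr9, Oas2 and Ifi204 were then too low to be tested.

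Ezh2, a chromatin gene of dividing cells, was the one cell cycle gene that passed the low-count filter, and it rose by 1.25 on the log2 scale in 7 of 7 mice. Without the nuclei with endothelial genes it was too low to be tested. In the conventional-marker nuclei it had 9 UMIs on the endothelial and 9 on the dendritic side (39.4 and 72.1 CPM). Bank1, a B cell adaptor gene, was lower in dendritic-rule than in Kupffer-rule nuclei (-3.18), where it stood at 516 ± 115 CPM (SD, n = 7), and Bach2, the other B cell gene tested, was higher (0.61).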
